A study of Homo sapiens with 18 samples.

Results

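The erythroid transcription factor genes examined were GATA1, GATA2, TAL1, KLF1, MYB, LMO2, NFE2, GFI1B, ZFPM1 and BCL11A, 10 genes named for their known roles in red cell formation. They were looked up by symbol, through GENCODE 44, among the 13051 transcripts of a table of transcriptional readthrough in K562 cells, and 9 were found. BCL11A has no transcript in that table and is not analysed here. Together the 9 genes hold 1026 of the 447434 readthrough reads of the series.

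K562 is a human cell line from chronic myeloid leukemia (CML) in blast crisis, a single established line that depends on the Bcr-Abl1 kinase. Nascent RNA was taken from its chromatin and depleted of polyadenylated and ribosomal RNA. It was sequenced as long reads on the PacBio platform, and the 3′ end of each molecule marks where a polymerase stood. A read was counted as readthrough when its 3′ end lay more than 100 nt past the end of the last exon, which is the polyadenylation site (PAS) of the gene. There were 6 conditions with 3 libraries each, and all groups are of the same unmodified line. CTRL is untreated cells. KCl 45min is a hyperosmotic shock, in which 110 mM KCl was added for 45 min, and JTE 1h is 5 µM JTE-607, an inhibitor of the CPSF73 nuclease that cleaves pre-mRNA, for 1 hour. CTRLim is a second set of untreated cells, prepared with the imatinib libraries. IM 1h and IM 18h are 1 µM imatinib, an inhibitor of Bcr-Abl1, for 1 and 18 hours. The question addressed was whether nascent RNA past the ends of these genes changed when the kinase or the cleavage machinery was inhibited or the cells were shocked.

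These factors form the core of the erythroid program. GATA2 acts in stem and progenitor cells and is replaced at shared sites by GATA1 as red cells mature, an exchange in which the cofactor ZFPM1 (also called FOG1) takes part. TAL1 binds E-box DNA next to GATA sites and is joined to GATA factors by the bridging protein LMO2. KLF1 and NFE2 activate globin and other red cell genes, GFI1B represses genes of other fates, MYB keeps progenitors dividing, and BCL11A silences fetal globin.

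Readthrough is counted from the PAS, so 30 bases with a poly(A) signal hexamer near the end of each gene are shown, 5′ to 3′ on the gene's strand (GRCh38, GENCODE 44). They end at the annotated end of the transcript, or just before it for ZFPM1. Capitals mark the hexamer matched on a list of known poly(A) signals, and its use for cleavage was not tested. The KLF1 stretch also ends in GATAAA, and the GFI1B stretch also holds ATTAAA after the marked hexamer. Both are on the same list and are not marked.
GATA1, chrX:48794282-48794311, plus strand: ttgtaaAATAAAaccaccaaagtcctgaaa
GATA2, chr3:128479427-128479456, minus strand: tgttaagaatAATAAAatactttttgtgaa
ZFPM1, chr16:88536998-88537027, plus strand: AGTAAActgtttaaaggtgtctagaaacta
TAL1, chr1:47216290-47216319, minus strand: gatttctaAATAAAagttttacaaaggggc
LMO2, chr11:33858576-33858605, minus strand: tgcaggcttAATAAAaatgacagactgaaa
KLF1, chr19:12884422-12884451, minus strand: ggtccTATAAAaatgcccctcccagataaa
NFE2, chr12:54292111-54292140, minus strand: agctttggtcTATAAAgtgcgctacagaaa
GFI1B, chr9:132991658-132991687, plus strand: aactgctgtcAATAAAattaaagatacaga
MYB, chr6:135219144-135219173, plus strand: aaAATAAAgatgtgcccttattttacctac
The canonical AATAAA stands in 6 of the 9 genes. The other 3 have neither AATAAA nor ATTAAA in their last 50 nt, and the next hexamer found on a list of 12 was TATAAA in KLF1 and NFE2 and AGTAAA in ZFPM1. Among 12704 transcripts with a sequence, 60.4% had AATAAA in the last 50 nt, 74.4% had AATAAA or ATTAAA, 6.79% had TATAAA and 4.81% had AGTAAA, all searched on the transcript's own strand.

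Each of these sites lies in the last exon of the gene, in its 3′ untranslated region. Downstream, GATA1, GATA2, TAL1, MYB, LMO2, GFI1B and ZFPM1 have no annotated gene within 5 kb. The nearest coding gene on the same strand begins 7066 nt beyond GATA1 (HDAC6) and 2827 nt beyond KLF1 (DNASE2). An annotated noncoding RNA lies on the opposite strand 334 nt past KLF1, and another overlaps the end of NFE2. Whether strand was used in the counting is not given in the sources used here, so reads of these partners could not be told from those of KLF1 and NFE2.

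The libraries held between 229855 and 1349556 reads after filtering, of which 8422 to 57982 per library were readthrough reads. They formed 2 sets by mapped reads as a share of raw reads. This share was 40.5% to 44.1% in CTRL, KCl 45min and JTE 1h and 84.3% to 91.6% in CTRLim, IM 1h and IM 18h. Treatments were therefore compared within a set. Median read lengths listed by the study still differed among the libraries within CTRL, KCl 45min and JTE 1h, and were not adjusted for. CTRLim replicates 2 and 3 showed no difference beyond the sampling noise (chi-square test of their counts over 835 genes, p = 0.27) while both differed from replicate 1, and they were counted as 1 sample in means. The IM 1h libraries showed no difference beyond that noise in any pair either, by chi-square tests over 1323 to 1586 genes (p = 0.0659 to 0.722), and they were kept apart, since no pair of that group stood out. Markers of the line were present, with 4159 readthrough reads at HBG1 and 2768 at HBE1 over all libraries. The megakaryocytic marker ITGB3 had 5 reads and THBS1 and PLEK had 0, and the lymphoid CD79A and the myelomonocytic LYZ had 1 read each. Values below are readthrough reads per 1000000 library reads (RPM), and each fold change is on that scale. RPM of a gene rises both when more of it is transcribed and when cleavage fails more often, and in bulk RNA fewer cells that use a gene and less RNA per cell cannot be told apart.

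The genes differed widely in coverage. TAL1 had 408 readthrough reads over the 18 libraries, LMO2 121, KLF1 115 and GATA2 111, which are the 4 genes with at least 100. NFE2 had 90, GFI1B 73, MYB 66 and GATA1 38. ZFPM1 had 4 reads in all, 1 in JTE 1h and 3 in IM 18h, and is too sparse for any statement beyond that count. GATA1 never exceeded 5 reads in a library and was too sparse for a test at the minimum of 30 reads described below. Their reads are not a rank of expression, since genes were not set on a scale per length.

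**Figure D1:**
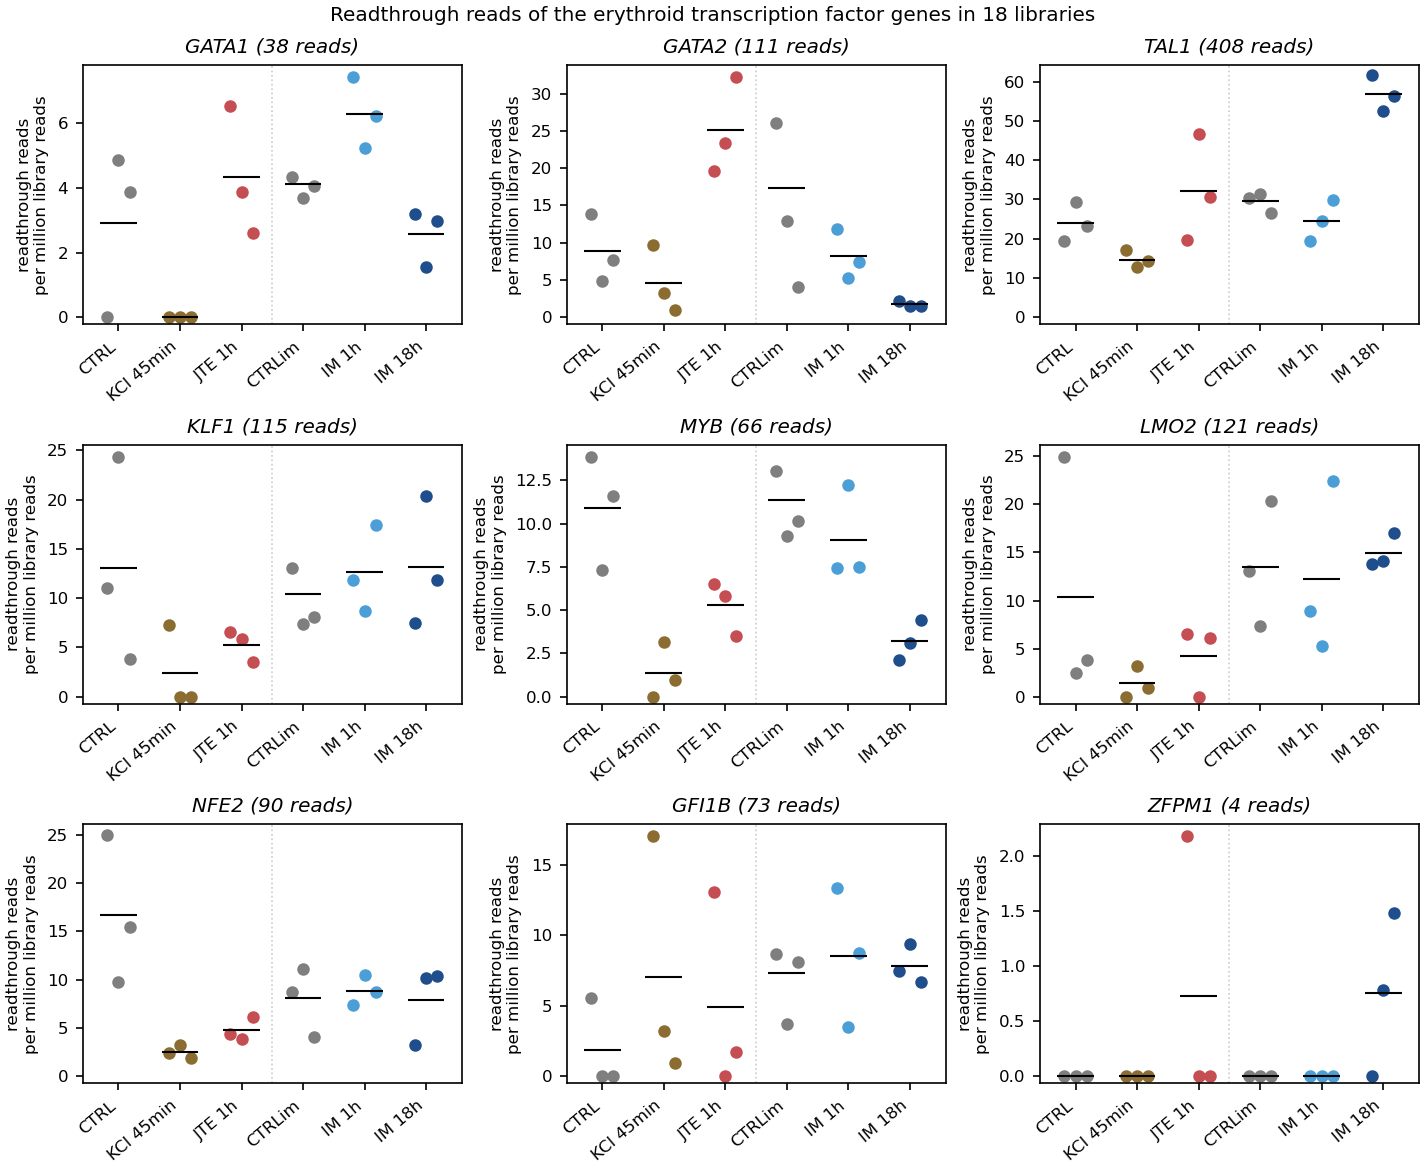
Readthrough reads per 1000000 library reads (vertical axes, each with its own scale) of the 9 genes in each of the 18 libraries, by condition. Points are libraries and the black lines are means, in which CTRLim replicates 2 and 3 count as 1 sample. The dotted line separates the 2 sets of libraries. The 3 IM 18h libraries of TAL1, at 52.4 to 61.7, sit above all other libraries.

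After 18 hours of imatinib, TAL1 was the factor called higher. Against CTRLim its readthrough rose 1.93-fold, and against IM 1h it rose 2.28-fold. Genes were tested when they had at least 30 readthrough reads over the 6 libraries of a comparison, with edgeR's quasi-likelihood test and Benjamini-Hochberg adjustment over all genes tested, and were called at an adjusted p under 0.05. At that minimum TAL1 was the 1 member called of 5 tested between IM 18h and CTRLim, where 14.1% of all 1386 genes were called, and of 6 tested between IM 18h and IM 1h, where 18.3% of 1720 were called. With a minimum of 10 reads GATA2 was called as well, lower at IM 18h in both comparisons, so that 2 of 8 members were called in each. The background was then 5.41% of 3808 genes against CTRLim and 6.91% of 4445 against IM 1h. All libraries of IM 18h lay to the same side of all CTRLim libraries in 4 of the 8 members (TAL1 higher, GATA1, GATA2 and MYB lower), as they did in 23.3% of all genes, and to the same side of all IM 1h libraries in the same 4, as in 24.4% of all genes.

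TAL1, the E-box binding partner of the GATA factors, had 30.5, 31.5 and 26.4 RPM in CTRLim replicates 1 to 3. It had 19.3, 24.4 and 29.9 RPM in IM 1h, and 61.7, 52.4 and 56.3 RPM in IM 18h. Every IM 18h library lay above every library of the other conditions, while IM 1h and CTRLim overlapped. These levels rest on 7, 17 and 13 reads in CTRLim, 13, 14 and 24 in IM 1h and 58, 67 and 76 in IM 18h. Between IM 18h and IM 1h the log2 fold change was 1.19 (standard error (SE) 0.242, adjusted p = 9.36e-05 by edgeR's quasi-likelihood test), and this call held under every alternative run at a minimum of 30, 10 or no reads except the fit of all 18 libraries at a minimum of 10. It stood at percentile 95.5 of the log2 changes of all genes tested there.

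Against CTRLim the log2 fold change of TAL1 was 0.95 (SE 0.297, adjusted p = 0.0231 by the same edgeR test), percentile 85.2 of all genes tested. Its adjusted p ranged from 0.00749 to 0.128 over 16 alternatives, and the call was lost in 5 of them. It was 0.128 with all 18 libraries in 1 fit, 0.112 with no minimum of reads, where GATA2 was the 1 member called, 0.0577 with CTRLim replicates 2 and 3 counted as 1 library, 0.0715 without CTRLim replicate 2 and 0.12 without replicate 3. The fold moved less, from 0.86 to 1.12 on the log2 scale. Further alternatives at a minimum of 10 reads lost the call as well. These were all 18 libraries in 1 fit, CTRLim replicates 2 and 3 counted as 1, and leaving out CTRLim replicate 2 or 3. At that minimum the call was also lost when any single IM 18h library was left out. Between IM 1h and CTRLim the log2 fold change was -0.24 (95% interval -0.90 to 0.42, adjusted p = 0.784 by the same edgeR test), so a change of TAL1 at 1 hour was not detectable at this depth.

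In the other set of libraries TAL1 had 19.4, 29.2 and 23.2 RPM in CTRL, 17.0, 12.7 and 14.2 RPM in KCl 45min and 19.6, 46.7 and 30.5 RPM in JTE 1h. All KCl libraries lay below all CTRL libraries, and JTE 1h overlapped CTRL. The log2 fold change was -0.71 for KCl (95% interval -1.81 to 0.40, adjusted p = 0.401) and 0.42 for JTE-607 (95% interval -0.70 to 1.54, adjusted p = 0.814, both by the same edgeR test). The JTE-607 value went to -0.012 after TMM scaling of the readthrough counts, which centers most genes on no change. In order of mean RPM, IM 18h came first with 56.8 ± 4.65 (SD, n = 3), apart from JTE 1h with 32.3 ± 13.6 (SD, n = 3). CTRLim with 29.7 ± 1.07 (SD, n = 2), IM 1h with 24.5 ± 5.29 (SD, n = 3) and CTRL with 23.9 ± 4.96 (SD, n = 3) followed and overlapped with their neighbours. KCl 45min came last with 14.7 ± 2.19 (SD, n = 3), below all libraries of CTRL.

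LMO2, which bridges TAL1 to the GATA factors, showed no separation of IM 18h from the other conditions. It had 13.1, 7.41 and 20.3 RPM in CTRLim, 8.91, 5.23 and 22.4 RPM in IM 1h and 13.8, 14.1 and 17.0 RPM in IM 18h. The 3 conditions overlapped, and single libraries of CTRLim and IM 1h reached above all of IM 18h. At IM 18h the log2 fold change was 0.16 against CTRLim (SE 0.431, adjusted p = 0.846) and 0.21 against IM 1h (SE 0.381, adjusted p = 0.741 by the same edgeR test). The first became -0.24 without CTRLim replicate 2 and the second -0.096 without IM 1h replicate 2. The difference between the changes of LMO2 and TAL1 was not tested. In CTRL, 9 of its 11 reads came from replicate 1.

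GATA2, the GATA factor of progenitor cells, had 26.1, 13.0 and 4.06 RPM in CTRLim, 11.9, 5.23 and 7.47 RPM in IM 1h and 2.13, 1.57 and 1.48 RPM in IM 18h. Every IM 18h library had exactly 2 reads and lay below every CTRLim and IM 1h library, while CTRLim reached from 4.06 to 26.1 RPM and overlapped IM 1h. In the fits of genes with at least 10 reads GATA2 fell, with a log2 fold change of -2.73 for IM 18h against CTRLim (SE 0.692, adjusted p = 0.00352) and of -2.21 against IM 1h (SE 0.665, adjusted p = 0.0190, both by edgeR's quasi-likelihood test).

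With reads pooled, IM 18h held 6 GATA2 reads against 15 in CTRLim, a ratio per library read of 0.142 (95% interval 0.045 to 0.386, counting error only). The call against CTRLim was lost without CTRLim replicate 1 (adjusted p = 0.0781) or replicate 2 (adjusted p = 0.0569) and with DESeq2 (adjusted p = 0.073). That against IM 1h was lost after TMM scaling (adjusted p = 0.0822), with all 18 libraries in 1 fit (adjusted p = 0.0792), and without IM 1h replicate 1 (adjusted p = 0.185) or 3 (adjusted p = 0.0519) or IM 18h replicate 2 (adjusted p = 0.0509) or 3 (adjusted p = 0.0693). The direction stayed lower in all of these fits. At 1 hour the log2 fold change was -0.52 (SE 0.532, adjusted p = 0.708 by the same edgeR test).

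Under JTE-607 GATA2 had the highest log2 fold change of the 8 factors tested. It had 13.9, 4.87 and 7.73 RPM in CTRL and 19.6, 23.3 and 32.2 RPM in JTE 1h. All JTE 1h libraries lay above all CTRL libraries. The log2 fold change of 1.52 (95% interval 0.23 to 2.81) did not pass the test (unadjusted p = 0.0278, adjusted p = 0.426 by edgeR's quasi-likelihood test). It was set among changes of all genes with a median of 0.49 on the same scale, at percentile 89.2. After TMM scaling it was 1.117 (adjusted p = 0.631 by the same edgeR test). Over 15 alternatives it ranged from 1.117 to 2.035, and GATA2 was not called in any of them. In KCl 45min GATA2 had 9.74, 3.19 and 0.947 RPM, overlapping with CTRL (log2 fold change -1.18, SE 0.905, adjusted p = 0.478).

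GATA1, the master factor of red cell maturation, was covered by 0 to 5 reads per library. It had 4.35, 3.70 and 4.06 RPM in CTRLim, 7.43, 5.23 and 6.23 RPM in IM 1h and 3.19, 1.57 and 2.96 RPM in IM 18h. The 3 IM 1h libraries lay above all CTRLim libraries and the 3 IM 18h libraries below them. Neither difference passed, with log2 fold changes of 0.65 at 1 hour (SE 0.748, adjusted p = 0.81) and -0.62 at 18 hours (SE 0.888, adjusted p = 0.804). Between the time points it was -1.28 (SE 0.657, unadjusted p = 0.0506, adjusted p = 0.279, all by the same edgeR test at a minimum of 10 reads). KCl 45min had no GATA1 read in any library, which allows up to 1.69 RPM over the group when 3 reads are taken as the limit of a count of 0, and CTRL had 3 reads, so no fold is given. ZFPM1, the cofactor of GATA1, had no read in CTRL, KCl 45min, CTRLim and IM 1h, which allows up to 2.91, 1.69, 2.38 and 1.46 RPM by the same limit.

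KLF1, which activates the adult globin gene and red cell membrane genes, had 13.1, 7.41 and 8.13 RPM in CTRLim, 11.9, 8.72 and 17.4 RPM in IM 1h and 7.45, 20.4 and 11.9 RPM in IM 18h. The 3 conditions overlapped. Its log2 fold change at IM 1h was 0.57 (95% interval -0.45 to 1.60, adjusted p = 0.668), and at IM 18h it was 0.63 (95% interval -0.34 to 1.61, adjusted p = 0.44), both against CTRLim in the same edgeR test. Between the time points it was 0.056 (95% interval -0.70 to 0.81) and fell below 0 without IM 18h replicate 2, at -0.39.

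NFE2, the large subunit of a factor that drives globin genes, overlapped in the same way across the imatinib set, at 8.70, 11.1 and 4.06 RPM in CTRLim, 7.43, 10.5 and 8.72 RPM in IM 1h and 3.19, 10.2 and 10.4 RPM in IM 18h. The log2 fold change at IM 18h was 0.069 against CTRLim (SE 0.572, adjusted p = 0.951 by the same edgeR test). An interval of that width holds changes of over 2-fold in either direction. In the other set NFE2 had its highest level in CTRL, with 25.0, 9.75 and 15.5 RPM. It had 2.44, 3.19 and 1.89 RPM in KCl 45min and 4.35, 3.89 and 6.10 RPM in JTE 1h. All libraries of both treatments lay below all CTRL libraries, and both comparisons use those same 3 CTRL libraries.

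GFI1B, a repressor of genes of other blood fates, had 8.70, 3.70 and 8.13 RPM in CTRLim, 13.4, 3.49 and 8.72 RPM in IM 1h and 7.45, 9.39 and 6.67 RPM in IM 18h, with overlap throughout. In the other set 2 reads in CTRL replicate 1 were its only CTRL reads. KCl 45min had 7, 1 and 1 reads and JTE 1h had 6, 0 and 2, so that replicate 1 held most reads in all 3 conditions. No comparison of GFI1B passed the test at either minimum.

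MYB, which holds progenitors in cycle, had 13.1, 9.26 and 10.2 RPM in CTRLim, 7.43, 12.2 and 7.47 RPM in IM 1h and 2.13, 3.13 and 4.45 RPM in IM 18h. All IM 18h libraries lay below all libraries of both other conditions. The differences did not pass the test. Between IM 18h and IM 1h the log2 fold change was -1.36 (95% interval -2.40 to -0.31, unadjusted p = 0.012, adjusted p = 0.0635 by edgeR's quasi-likelihood test). Against CTRLim, with 12 reads facing 13, it was -1.58 (SE 0.637, unadjusted p = 0.013, adjusted p = 0.147 at a minimum of 10 reads). Among the 4445 genes with at least 10 reads at these time points, 18.2% were lower in every IM 18h library than in every IM 1h library, so MYB shared its pattern with many genes.

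**Figure D2:**
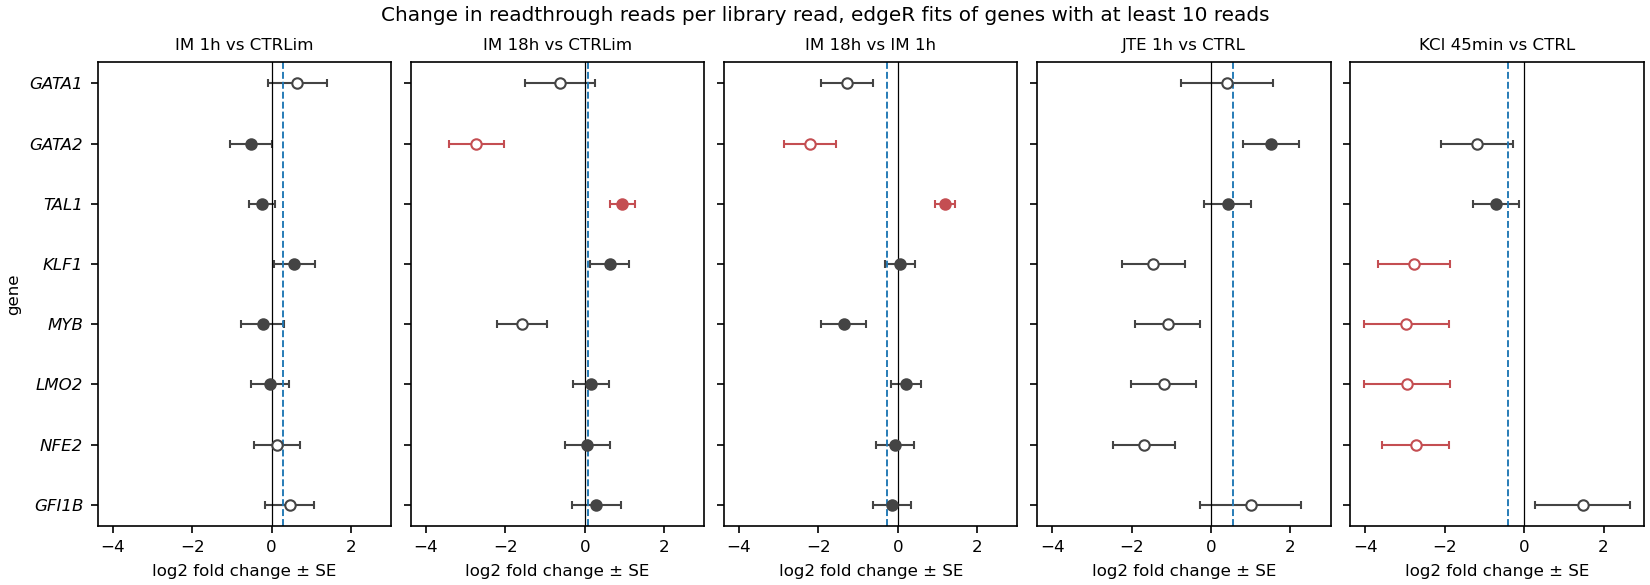
Log2 fold changes (horizontal axes, bars ± SE) of 8 genes in 5 comparisons from edgeR fits of genes with at least 10 reads over the 6 libraries. Red marks an adjusted p under 0.05, filled points passed the minimum of 30 reads, and the blue dashed line is the median of all genes tested. TAL1 lies to the right and GATA2 to the left in both comparisons of IM 18h, and KLF1, MYB, LMO2 and NFE2 lie to the left under KCl.

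One hour of imatinib gave no call among these genes. Of 5 members tested at a minimum of 30 reads 0 were called in edgeR's quasi-likelihood test, 0 had an unadjusted p under 0.05, and DESeq2 called 0. The background was 1.52% of 988 genes. Their log2 fold changes lay between -0.52 (GATA2) and 0.57 (KLF1), with a median of -0.22 beside 0.19 for all genes tested. At a minimum of 10 reads 8 members were tested and 0 called (0 at an unadjusted p under 0.05), with a background of 0.538%, and the groups did not overlap in 1 (GATA1) beside 16.1% of all genes.

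Under JTE-607, 0 of 2 members tested were called by edgeR's quasi-likelihood test and 0 by DESeq2, and 1 (GATA2) had an unadjusted p under 0.05. The background was 0.103% of 969 genes. At a minimum of 10 reads 0 of 8 were called (2 at an unadjusted p under 0.05, GATA2 and NFE2) against 0.0294% of 3405 genes, and the groups did not overlap in 3 (GATA2 higher, NFE2 and MYB lower) beside 13.4% of all genes. The members lay on both sides of the median of all genes, which was 0.56 at that minimum. NFE2 had a log2 fold change of -1.68 (SE 0.777, unadjusted p = 0.0303, adjusted p = 0.446), KLF1 -1.45 (SE 0.797, adjusted p = 0.582), LMO2 -1.19 (SE 0.826, adjusted p = 0.702) and MYB -1.09 (SE 0.825, adjusted p = 0.715), all by the same edgeR test. NFE2 and KLF1 were among the lowest 0.881% of all genes by log2 fold change, LMO2 and MYB among the lowest 2.58%. KLF1 had 11.1, 24.4 and 3.87 RPM in CTRL and 6.53, 5.83 and 3.49 RPM in JTE 1h, so its groups overlapped. These 4 values rest on 10 or 11 reads per gene in JTE 1h and 11 to 17 in CTRL. The background of 0.103% depended on the libraries in the fit. The readthrough share of JTE 1h replicate 1 was 3.06% of the library, below all CTRL libraries (3.32% to 3.55%). In replicates 2 and 3 it was 5.40% and 5.05%, above all CTRL libraries. Without JTE 1h replicate 1, 69 of 840 genes were called, and 0 of the 2 members. Without replicate 2 or 3, 0 genes were called. Why replicate 1 differed was not tested.

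After hyperosmotic shock 4 of these genes were lower at a minimum of 10 reads, when library reads were the scale. Of 7 members tested KLF1, MYB, LMO2 and NFE2 were called lower by edgeR's quasi-likelihood test, and 11.8% of 1885 genes were called in that direction (13.6% in either direction). The groups did not overlap in 3 of the 7 (TAL1, MYB and NFE2, all lower), and in 27.5% of all genes. At the minimum of 30 reads 1 member could be tested, TAL1, and 0 were called by edgeR or DESeq2, with 0 at an unadjusted p under 0.05, beside 25.1% of 378 genes called in either direction. After TMM scaling, and with DESeq2, which gave no adjusted p for MYB and LMO2, 0 of the 7 members were called. With a replicate block NFE2 stayed called (adjusted p = 0.0319), and KLF1 (0.145), MYB (0.104) and LMO2 (0.202) did not. Without KCl 45min replicate 3 or without CTRL replicate 1, 0 were called, and without CTRL replicate 2 or KCl 45min replicate 1, 2 were called.

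The reads behind these calls were few. NFE2 had 9, 4 and 4 reads in CTRL and 1, 1 and 2 in KCl 45min (log2 fold change -2.73, SE 0.845, adjusted p = 0.0180). KLF1 had 4, 10 and 1 reads in CTRL and 3, 0 and 0 in KCl 45min (log2 fold change -2.78, SE 0.911, adjusted p = 0.0264). The groups of NFE2 did not overlap, whereas KCl 45min replicate 1 of KLF1 lay above CTRL replicate 3. MYB had 5, 3 and 3 reads in CTRL and 0, 1 and 1 in KCl 45min (adjusted p = 0.0468), without overlap. LMO2 had 9, 1 and 1 reads in CTRL and 0, 1 and 1 in KCl 45min (adjusted p = 0.0474, all by the same edgeR test), with overlap.

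Pooled, the ratio per library read of KCl 45min to CTRL was 0.136 for NFE2 (95% interval 0.0333 to 0.417), 0.116 for KLF1 (95% interval 0.0215 to 0.409) and 0.105 for both MYB and LMO2 (95% interval 0.0113 to 0.482), with counting error only. Over all genes tested the median log2 fold change was -0.41 on this scale, and the readthrough share of the library was lower in every KCl 45min library (2.15% to 2.68%) than in every CTRL library (3.32% to 3.55%).

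**Figure D3:**
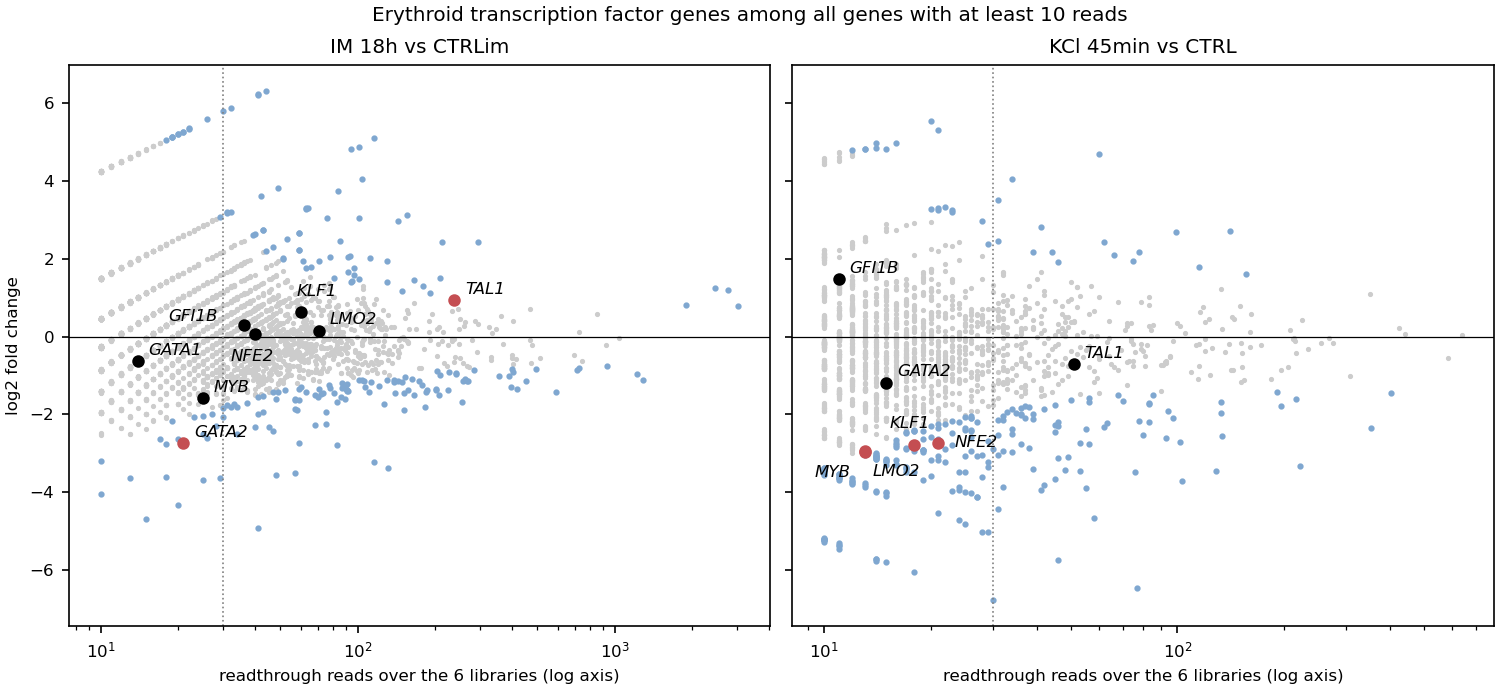
Log2 fold change (vertical axis) against readthrough reads over the 6 libraries (horizontal log axis) for genes with at least 10 reads, in IM 18h against CTRLim and in KCl 45min against CTRL. Gray points are genes not called, blue points are called genes, large points are the factors, red where called, and the dotted line stands at 30 reads. TAL1 is the factor with the most reads, and the 4 factors called under KCl and GATA2 at IM 18h all lie left of the line.

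The untreated sets were also compared, since the treatments rest on them. TAL1 was tested between CTRLim and CTRL at a minimum of 30 reads and was not called, beside 10.6% of 472 genes (log2 fold change 0.27, 95% interval -0.48 to 1.02, adjusted p = 0.68 by edgeR's quasi-likelihood test), and the sign turned to -0.036 after TMM scaling. At a minimum of 10 reads 0 of 7 were called (0 at an unadjusted p under 0.05) beside 4.36% of 1971 genes, and all 7 overlapped, while 24.9% of all genes did not. The widest differences were those of GFI1B (log2 fold change 1.56, SE 1.07, adjusted p = 0.464) and NFE2 (-1.04, SE 0.642, adjusted p = 0.406).

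Many of the genes that these factors are known to act on were called at 18 hours of imatinib. Of 47 erythroid target genes listed from general knowledge, 38 were in the table and 18 had at least 30 reads in IM 18h and CTRLim. The list was made with earlier results of these data known. The minimum is a sum over the 6 libraries, so targets scarce in CTRLim could pass it through their IM 18h reads. For both reasons the counts below describe these genes and are no independent test. Of those 18, 13 were called higher and 1 lower by edgeR's quasi-likelihood test, where 14.1% of all genes were called, with a median log2 fold change of 2.33 beside -0.01 for all genes tested. For the 5 factors tested there the median was 0.30. GATA1, GATA2 and MYB missed that minimum, and their log2 fold changes at a minimum of 10 reads were negative, with GATA2 called. Over the 8 factors with at least 10 reads the median was 0.11. Against IM 1h, 12 of 19 targets were called higher and 1 lower, beside 18.3% of all genes called. DESeq2 called 8 of the 18 and 12 of the 19. After 1 hour 0 of 7 were called by the same edgeR test, 0 had an unadjusted p under 0.05, and DESeq2 called 0.

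Of these targets, HBG1, the fetal gamma-globin gene, rose from 301.7 to 681.1 RPM in the mean of 3 libraries (log2 fold change 1.21, adjusted p = 6.31e-05). ERMAP, a red cell membrane antigen gene, rose from 15.8 to 78.5 RPM (log2 fold change 2.42, adjusted p = 1.42e-06). HBD, the delta-globin gene, stood at 0.677 RPM in CTRLim and 27.5 RPM in IM 18h (adjusted p = 5.15e-06). That CTRLim mean lies below the 2.38 RPM that 3 reads would give. Its log2 fold change ranged from 3.54 with all 6 untreated libraries as control to 7.60 without CTRLim replicate 3. FTL, the ferritin light chain gene, was the 1 that fell, from 74.8 to 27.4 RPM (log2 fold change -1.36, adjusted p = 7.08e-04, all by the same edgeR test). HBG1 shares near-identical sequence with HBG2, so the assignment of its reads is uncertain. Under KCl, 4 of 5 targets tested were called lower, beside 25.1% of all genes called in either direction. The HBG1 call there was lost in 9 of 15 alternatives, among them TMM scaling (adjusted p = 0.0768), DESeq2 (adjusted p = 0.0963), and leaving out any CTRL library (adjusted p = 0.076 to 0.0905), KCl 45min replicate 2 (adjusted p = 0.229) or replicate 3 (adjusted p = 0.133). Under JTE-607 0 of 7 were called by edgeR and by DESeq2, with 1 at an unadjusted p under 0.05. DESeq2 called 2 of the 5 under KCl.

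**Figure D4:**
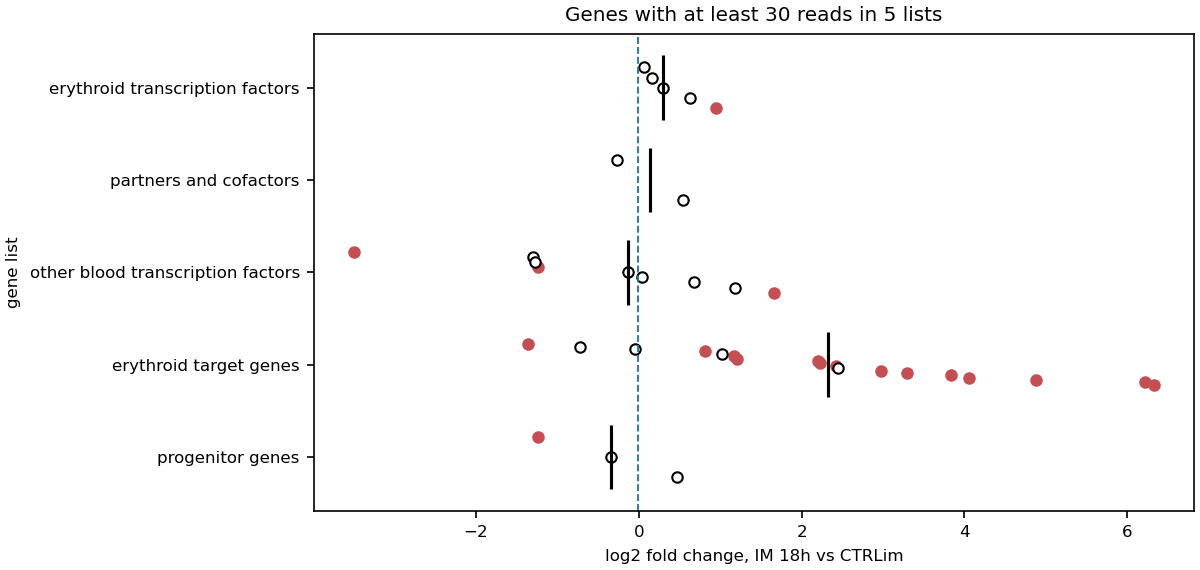
Log2 fold change of IM 18h against CTRLim (horizontal axis) for genes with at least 30 reads in 5 lists (rows). Red points had an adjusted p under 0.05, open points did not, black ticks are list medians and the blue dashed line is the median of all genes tested. The erythroid target genes reach from -1.36 to over 6, while the 5 erythroid transcription factors shown lie between 0.069 and 0.95. GATA2, MYB and GATA1 missed the minimum of 30 reads, with -2.73, -1.58 and -0.62 in the fits of genes with at least 10 reads.

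Among 44 other blood transcription factor genes, 35 were in the table and 9 were tested at IM 18h against CTRLim. ID1, an inhibitor of the E proteins that pair with TAL1, was called lower (35.8 to 2.99 RPM, log2 fold change -3.49, adjusted p = 9.10e-08). MYC, a driver of growth, was called lower as well (67.0 to 27.3 RPM, log2 fold change -1.24, adjusted p = 0.00147). IKZF1, a zinc finger factor of blood cells, was called higher (9.07 to 23.2 RPM, log2 fold change 1.66, adjusted p = 0.0139, all by the same edgeR test), a call lost without CTRLim replicate 2 (adjusted p = 0.178) or 3 (adjusted p = 0.104), with all 18 libraries in 1 fit (adjusted p = 0.0579) and with all 6 untreated libraries as control (adjusted p = 0.0636). ID1 was already called lower at IM 1h (log2 fold change -4.07), though not with all 6 untreated libraries as control (-3.31, adjusted p = 0.244), and it was called higher in CTRLim than in CTRL (35.8 and 5.91 RPM, adjusted p = 0.0141, but 0.11 with DESeq2 and 0.0588 with CTRLim replicates 2 and 3 counted as 1). KLF10, a factor of the KLF1 family, and IKZF1 were the 2 of 8 called between IM 18h and IM 1h, both higher, with log2 fold changes of 2.35 and 1.10, of which that of IKZF1 was lost without IM 1h replicate 3 (adjusted p = 0.221), with DESeq2 (adjusted p = 0.0954), with no minimum of reads (adjusted p = 0.0797), with all 18 libraries in 1 fit (adjusted p = 0.148) and with the IM 1h libraries counted as 1 (adjusted p = 0.102).

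Of 32 genes of partners and cofactors, such as LDB1, KDM1A and the NuRD subunits, 31 were in the table, and between 0 and 4 had enough reads in a comparison. The number called was 0 in all 6 comparisons by edgeR's quasi-likelihood test and by DESeq2, with 1 at an unadjusted p under 0.05 between IM 18h and IM 1h and 1 between CTRLim and CTRL. Of 18 progenitor genes, 15 were in the table and MYC was the 1 called of 3 tested at IM 18h against CTRLim. Under KCl MYC was the 1 gene of both the blood factor and the progenitor list with enough reads, and it was called lower (52.0 to 2.44 RPM, log2 fold change -4.68, adjusted p = 3.58e-06 by the same edgeR test).

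For the 4 factors with at least 100 reads, the genes with the most similar profile over the 18 libraries were sought among 911 genes with at least 100 reads, by Pearson's r of log2 RPM. ERMAP (r = 0.856) and TXNIP (r = 0.80) were most like TAL1, where the median r over all genes was 0.324. RAB24 (r = 0.944) and TOMM40L (r = 0.899) were most like KLF1, beside a median of 0.314. NET1 (r = 0.745) and ZNF22 (r = 0.734) were most like LMO2, beside a median of 0.223, and the noncoding gene ENSG00000257065 (r = 0.814) was most like GATA2, followed by the transcript ENST00000619979 (r = 0.813), beside a median of 0.233. The libraries share conditions, depth and set, so these values describe likeness and nothing further.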

How the data were processed

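The deposited table holds whole-number readthrough counts per transcript, made by the authors without normalization. Per the labels and methods, adapters were removed with cutadapt 3.4, reads mapped with minimap2 2.22 to GRCh38.p14 and duplicates removed with UMICollapse 1.0.0. Of its 13051 transcripts, 12704 matched GENCODE 44. RPM used the library reads the study lists after removal of polyadenylated reads and splicing intermediates, which also served as library sizes.

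Genes were tested on the 6 libraries of each comparison with edgeR 4.0.16 (glmQLFit, glmQLFTest) in R 4.3.3, and with DESeq2 1.42.0 as an alternative. Both were tested on simulated data. Within each comparison and setting, all genes tested shared 1 Benjamini-Hochberg adjustment, and none was made across comparisons. Intervals of log2 fold changes are 1.96 standard errors to each side, and those of pooled ratios are exact and cover counting error only. Folds of genes are fitted values. Labels call the libraries biological replicates. Means of CTRLim use 2 samples where SD is given, and fits use 3 libraries. Tables and figures were made in Python 3.11.15 (numpy 2.4.6, pandas 2.3.3, matplotlib 3.10.9, scipy 1.17.1).

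The genes and lists were chosen with earlier results of these data known. Named were all 10 factors, from each list at most 4 called genes, those of smallest adjusted p, and the 2 most similar genes of each factor with at least 100 reads. Alternatives changed the scaling, the test, the minimum of reads, the libraries in the fit and the control, left out single libraries in turn and added a replicate block. The share of polymerases that read through needs gene body reads, which were not used here. Some marker genes are not reported here.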

Additional observations from a re-analysis of the deposited data

Results flagged for a closer look

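The effect of imatinib on TAL1 readthrough differed between 18 hours and 1 hour. Both time points share the CTRLim libraries, so the difference was tested directly between them, with a log2 fold change of 1.19 for IM 18h over IM 1h (SE 0.242, adjusted p = 9.36e-05 by edgeR's quasi-likelihood test, higher in 3 of 3 libraries). Relative to CTRLim the log2 fold change of TAL1 was 0.95 at 18 hours and -0.24 at 1 hour.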

How the results depend on the processing

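All alternatives that combine a minimum of 10 reads with a further choice, and those that count similar replicates once, were chosen after seeing the data. Between IM 18h and CTRLim the number of factors called was 1 (TAL1; with no minimum GATA2 in its place), and became 2 (TAL1 and GATA2) at a minimum of 10 reads and with all 6 untreated libraries as control, and 0 with all 18 libraries in 1 fit and with CTRLim replicates 2 and 3 counted as 1 library. Leaving out 1 library gave 0 to 1. At a minimum of 10 reads it was 1 of the 2 with DESeq2 (TAL1), all 18 libraries (GATA2) or CTRLim replicates 2 and 3 as 1 (GATA2), and 0 to 1 without 1 library. When any single IM 18h library was left out, that 1 was GATA2. Between IM 18h and IM 1h it was 1, and 2 with at least 10 reads or no minimum. At 10 reads TMM scaling and DESeq2 gave 1 (TAL1), all 18 libraries 0, and leaving out 1 library 1 to 2. For KCl it was 0, then 4 at 10 reads and 2 (LMO2 and NFE2) with all untreated libraries. At 10 reads TMM scaling and DESeq2 gave 0, the replicate block 1 (NFE2), and leaving out 1 library 0 to 3. DESeq2 gave no adjusted p for MYB and LMO2 there or for GATA2 between the time points.

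Same-numbered libraries did not deviate together in every pair (correlations -0.12 to 0.244), so the numbers were not taken as a pairing. Between IM 18h and CTRLim 3 of 3 numbers correlated best with their own. With the replicate block at a minimum of 30 reads the counts of called factors were 0, 1, 1, 0 and 0 for IM 1h, IM 18h against CTRLim and against IM 1h, JTE-607 and KCl, and JTE-607 called 4 genes in all in place of 1.

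Directions that turned belong to factors not called. LMO2 at IM 1h had 0.069 with all untreated libraries and -0.45 to 0.50 without 1 library. At IM 18h against CTRLim NFE2 had -0.52 with all untreated libraries, and without 1 library LMO2 had -0.24 to 0.71, NFE2 -0.31 to 0.56 and GFI1B -0.082 to 0.57. Between the time points NFE2 had 0.21 with TMM scaling, 0.17 with readthrough totals, 0.0033 with mapped reads and 0.18 with DESeq2, GFI1B had 0.13, 0.083 and 0.16 with TMM, readthrough totals and DESeq2, and KLF1 had -0.0031 with the block. Without 1 library KLF1 had -0.39 to 0.38, LMO2 -0.096 to 1.05, NFE2 -0.29 to 0.22 and GFI1B -0.46 to 0.27. TAL1 had -0.012, -0.022 and -4.68e-04 with TMM, readthrough totals and DESeq2 under JTE-607, and -0.036 and -0.059 with TMM and DESeq2 between untreated sets. The cause was not tested. The number of all genes called ranged over alternatives from 2 to 22 at IM 1h (main 15), 78 to 206 at IM 18h against CTRLim (196), 63 to 307 between time points (315), 0 to 69 for JTE-607 (1), 41 to 274 for KCl (95) and 18 to 86 between the untreated sets (50). Under TMM scaling the median log2 fold change of all genes moved from 0.19 to 0.00389 at IM 1h, -0.30 to -0.00925 between time points, 0.49 to 0.086 under JTE-607, -0.39 to 0.0518 under KCl and 0.31 to -0.000806 between untreated sets.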
